A study of Sus scrofa with 150 samples.

Results

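The acute phase response is the change in the liver's output of plasma proteins that follows infection, injury or other inflammation. Cytokines released by macrophages, interleukin-6 above all, reach receptors on hepatocytes, activate the transcription factor STAT3 and raise the transcripts of secreted proteins such as haptoglobin, C-reactive protein and complement components. Other secreted proteins, albumin and transthyretin among them, are known to fall, and the extra secretory load is handled by chaperones of the endoplasmic reticulum. In the pig, haptoglobin, C-reactive protein and ITIH4 (also called pig-MAP) are the proteins most used to follow it.

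Livers of 150 pigs were compared by the level of this programme, with 30 livers of high and 30 of low level set against each other. The pigs, of the commercial cross Pix(DLxDE), were slaughtered at 110 kg on average, and the total RNA of each liver went on its own Affymetrix Porcine Genome Array, on which a probe set is a group of short probes to a transcript. The labels used here name no treatment or allele and hold neither age nor sex, so all 150 belong to a single group. The 2 groups below were made from the measured values. Carcass traits come with each pig, namely the area of fat over the longissimus muscle (cm2) and the water that a piece of this muscle lost on hanging (drip loss, as a percentage).

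The livers were chosen by HP (haptoglobin, which binds free haemoglobin), ITIH4 (a heavy chain of the inter-alpha-trypsin inhibitor family) and LBP (which binds bacterial lipopolysaccharide). FGA, the fibrinogen alpha chain, was to be included, but 0 probe sets carried its symbol. Each gene's level was averaged over its probe sets, set on a z scale over the 150 livers, and the mean of the 3 z values was the score. The 30 livers with the highest score, called high, scored from 0.592 to 2.05, and the 30 with the lowest, called low, scored from -1.45 to -0.557. The limits cut through a continuous range. The last high liver had HP at 13.84, ITIH4 at 13.29 and LBP at 8.32 on the log2 scale, and the next liver below it, at a score of 0.587, had 13.83, 13.21 and 8.57. The last low liver had 13.81, 12.71 and 7.61, and the next above it, at -0.553, had 13.80, 12.39 and 8.34. The other 90 livers lay between.

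The 3 genes that chose the livers are given as a description, without a test. ITIH4 ran from 12.89 to 13.64 in the high livers (median 13.30) and from 12.13 to 13.00 in the low livers (median 12.69), on the log2 scale. LBP, as the mean of 2 probe sets, ran from 8.32 to 10.44 (median 8.94) and from 6.02 to 8.64 (median 7.90). Both overlapped only at the edges of the groups. HP ran from 13.71 to 13.88 in the high livers (median 13.84) and from 13.68 to 13.95 in the low livers (median 13.75), so its medians lay close together and a low liver had the highest HP of all 150. All 3 genes lay above the 150-liver median in 20 of the 30 high livers, and all 3 below it in 19 of the 30 low livers.

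HP was hardly correlated with the other 2 genes. Over the 150 livers the Pearson correlation of ITIH4 with LBP was 0.44, but that of HP was 0.09 with ITIH4 and -0.05 with LBP (descriptions over arrays that share the score). HP lay near the top of the array's scale, ranking between 2 and 19 among an array's probe sets, with an SD of 0.055 over the 150 livers. As a description over the 150 arrays, its correlation with the mean of the 20 brightest other probe sets was 0.483 (Pearson's r) or 0.52 (Spearman's rho). That mean averaged 13.72 in the high, 13.73 in the between and 13.70 in the low livers. High minus low was 0.0253 (95% interval 0.0099 to 0.0406, two-sided permutation p 0.00171, not adjusted and outside the 7 measures below). HP still had a share in the choice, its mean z value being 0.67 in the high and -0.83 in the low livers, against 1.08 and -0.95 for ITIH4. The part of the array's upper range in the HP difference was not tested. A score of ITIH4 and LBP alone kept 22 of the 30 high and 19 of the 30 low livers and turned 0 high livers into low ones. How named genes fared with that score is given before the carcass traits.

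**Figure D1:**
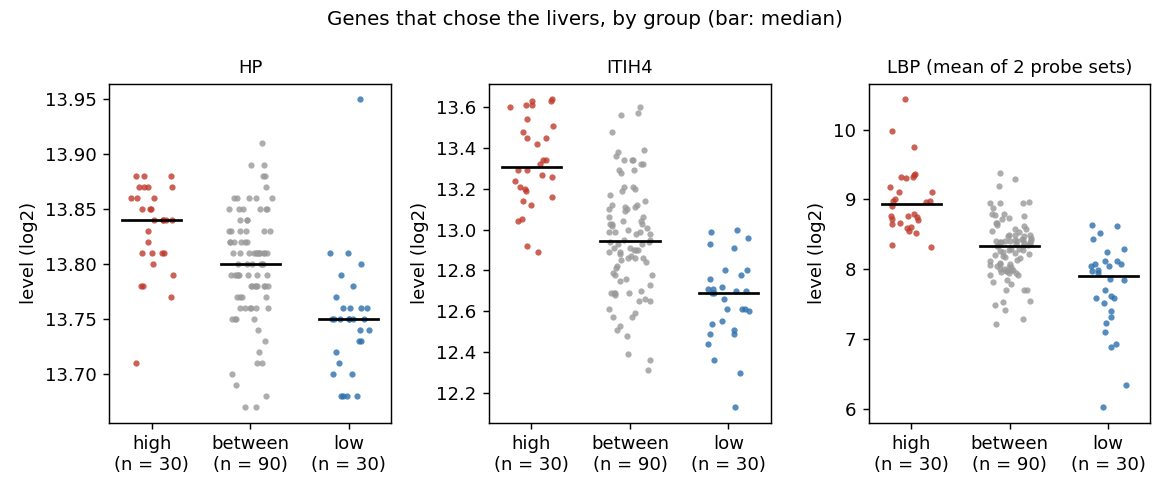
Level of HP, ITIH4 and LBP on the log2 scale (vertical axes, each with its own range) in the 30 high, 90 between and 30 low livers; each point is 1 liver and the bar is the group median. The HP medians are 13.84 and 13.75 in the high and low livers, against 13.30 and 12.69 for ITIH4 and 8.94 and 7.90 for LBP.

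Array medians ran from 5.79 to 6.05 in the high and from 5.82 to 6.09 in the low livers, and the lowest deposited value over all arrays was 4.09. Of 13 arrays that stood apart from the rest in their correlation, 4 were of high livers, 2 of low and 7 of livers between. The sample titles carry a number of unstated meaning, and numbers under 300 were held by 20 high and 9 low livers, numbers from 300 to under 600 by 3 and 14, and numbers of 600 and over by 7 and 7. Permutation tests compared the means of 7 measures. The adjusted p was 0.196 for the 3 prime to 5 prime difference of beta-actin, a sign of RNA quality (2.77 ± 0.506 against 2.998 ± 0.395 log2, SD, n = 30 each). It was at least 0.564 for the title number, array median, GAPDH difference and the Y-linked EIF1AY. A difference in means cannot show the uneven spread of title numbers given above, and that spread was not tested. Hepatocyte markers were near the top of the scale in both groups, their mean over 12 genes running from 12.85 to 13.22 in the high and from 12.80 to 13.19 in the low livers. In whole liver, a larger share of a cell type and more RNA per cell cannot be told apart.

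**Figure D2:**
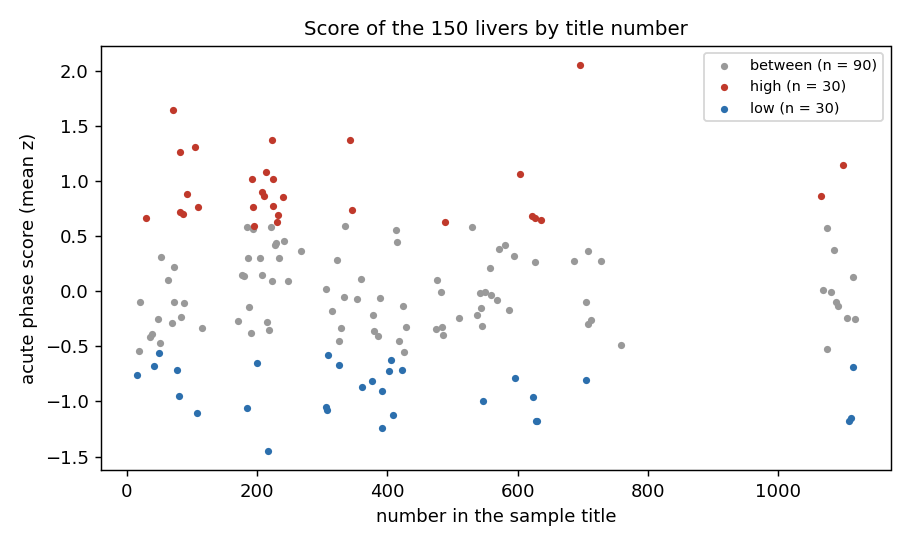
Acute phase score (vertical axis, mean z value of HP, ITIH4 and LBP) of the 150 livers against the number in the sample title (horizontal axis), with high, between and low livers in colour. High livers are most frequent at numbers under 300 (20 of 30). Of the 10 title-number blocks used below that held high or low livers, 6 held both groups.

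Of the 23995 probe sets that the choice did not use, 4.61% were higher and 2.84% (682) lower in the high livers at a limma adjusted p under 0.05. Counted by gene, each by its brightest probe set, 531 of 6762 (7.85%) were higher and 198 (2.93%) lower, with a median difference over all genes of 0.02 on the log2 scale. These percentages are the background against which the gene groups below are read. Most differences were small. Only 12 of the probe sets called higher and 3 of those called lower differed by more than 1 on the log2 scale. With blocks of 100 title numbers in the model these shares fell to 1.88% and 1.01%, and without the arrays that stood apart they were 3.59% and 1.66%. The 90 livers between were not used for the contrast, and there 94% of the probe sets called higher (1040) had a positive slope on the score, against 59.7% of all probe sets. Of the 682 called lower, 600 (88%) had a negative slope there, against 40.3% of all. Only 76 probe sets (0.317%) rose and 59 (0.246%) fell with the score in those 90 livers at an adjusted p under 0.05, of which 56 and 37 were also called between the groups.

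CRP was among the genes that differed most. CRP encodes C-reactive protein, which binds bacterial surfaces and damaged cells and starts complement. On the log2 scale it ran from 11.29 to 13.54 in the high livers (median 12.40) and from 9.75 to 12.43 in the low livers (median 11.27). Every high liver lay above the low livers' median, though the ranges overlapped. The difference, given here and below as high minus low on the log2 scale ± its standard error with 30 livers a group, was 1.26 ± 0.15, or 2.39-fold (limma adjusted p 7.41e-08). It was positive in 6 of the 6 title-number blocks that held both groups. The other blocks, of 10 with high or low livers, could not be compared, for this gene or those below. The slope of CRP in the 90 livers between was 1.09 per unit of score (adjusted p 0.00517).

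Among 27 measured genes of other acute phase proteins that rise in inflammation, 9 were higher and 0 lower, with a median difference of 0.13. LRG1, a leucine-rich glycoprotein that modifies TGF-beta signalling, ran from 9.78 to 11.99 in the high livers (median 11.16) and from 9.06 to 11.38 in the low livers (median 10.48). It was higher by 0.66 ± 0.10 (1.58-fold, adjusted p 1.13e-05), with 27 of 30 high livers above the low median. APCS, serum amyloid P component and a relative of CRP, was higher by 0.49 ± 0.10 (adjusted p 0.00131). SERPING1, the inhibitor of complement C1, was higher by only 0.15 ± 0.03 (adjusted p 0.000155). SERPING1 is 1 of 12 genes of this list with a mean above 13, near the top of the array's scale. Of the other called genes SERPINA3-2, HPX, C3, CFB and PLG also lie there, with differences from 0.07 to 0.14. Of all 88 probe sets with such a mean 17% were called higher, against 4.61% of all tested. Of textbook acute phase genes, picked after their values were seen, SAA2 (serum amyloid A) differed by 0.07 ± 0.07, ORM1 (orosomucoid) by 0.00 ± 0.04 and HAMP (hepcidin, which limits iron release) by -0.01 ± 0.38, and 0 of these 3 passed. Their adjusted p values were 0.604, 0.981 and 0.99. With the score of ITIH4 and LBP alone their differences were -0.05, -0.05 and 0.63 (adjusted p 0.791, 0.667 and 0.303), so each had the opposite sign there. The slope of HAMP in the 90 livers between was 0.40. FGB and FGG, fibrinogen chains like FGA, differed by 0.07 ± 0.04 and 0.13 ± 0.06 and did not pass (adjusted p 0.385 and 0.152). With the score of ITIH4 and LBP alone FGG passed, at 0.25 (adjusted p 0.00444), and FGB did not (adjusted p 0.058). The mean over the 27 genes lay above all low livers in 15 of the 30 high livers, 3 of them on arrays that stood apart.

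Plasma proteins known to fall in inflammation gave no lower call. Of 16 measured genes 2 were higher (12.5%, against 7.85% of all genes) and 0 lower in the limma fit. With 2.93% of all genes called lower, 0 of 16 says little. At an unadjusted p under 0.05 were 7 in either direction, and the median difference was 0.05. RBP4, the carrier of retinol, was higher by 0.11 ± 0.03 (adjusted p 0.0377) and ALB, albumin, by 0.08 ± 0.02 (adjusted p 0.0256). These are their brightest probe sets, and a second RBP4 probe set, at a mean of 12.0, was higher by 0.35 ± 0.06 (adjusted p 0.000105). The calls of both brightest probe sets were lost with the score of ITIH4 and LBP alone (adjusted p 0.066 and 0.957), where the ALB difference was 0.00. Of these 16 genes 11 have a mean above 13, and 12 were on the higher side. The largest negative differences were of SERPINA6 (-0.35 ± 0.21) and SERPINA7 (-0.175 ± 0.08), which did not pass (adjusted p 0.374 and 0.203). With the score of ITIH4 and LBP alone these 2 differed by -0.64 and -0.27 (adjusted p 0.0846 and 0.053). Both were picked after their values were seen.

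Genes of the cytokine signalling that drives the programme differed in part. Of 21 measured, 3 were higher and 0 lower (median difference 0.08). STAT3, the transcription factor that interleukin-6 activates in hepatocytes, ran from 9.90 to 11.65 in the high livers (median 10.97) and from 9.66 to 11.23 in the low livers (median 10.35). Its groups overlapped, and 28 of 30 high livers lay above the low median. The difference was 0.58 ± 0.10 (1.49-fold, adjusted p 0.000115). TNFRSF1A, a receptor of tumour necrosis factor, was higher by 0.36 ± 0.07 (adjusted p 0.000828), and MYD88, the adaptor of Toll-like and interleukin-1 receptors, by 0.26 ± 0.07 (adjusted p 0.00963). MYD88's second, dimmer probe set, at a mean of 4.25, differed by -0.01 ± 0.04 (adjusted p 0.967). The cytokine transcripts IL6, TNF and IL1B were dim in both groups, with means from 4.91 to 5.56, and did not pass. These 3 were also picked after their values were seen.

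Complement, the cascade of plasma proteins that marks and lyses microbes, held the largest share of called genes among the lists. Of 21 measured genes 12 were higher (57.1%, against 7.85% of all genes) and 0 lower, with a median difference of 0.14. Of the 12, C1R, C1S, C3, CFB, VTN and CLU have a mean above 13, with differences from 0.07 to 0.21. Of all 88 probe sets with such a mean 17% were called higher, against 4.61% of all tested. With the score of ITIH4 and LBP alone 10 of the 21 were called higher, and C3 and VTN did not pass (adjusted p 0.214 and 0.738). C4A, the C4 component shared by the classical and lectin pathways, ran from 12.26 to 13.36 in the high livers (median 12.96) and from 12.20 to 12.97 in the low livers (median 12.46). It was higher by 0.42 ± 0.06 (1.34-fold, adjusted p 3.32e-06), and 29 of 30 high livers lay above the low median. C2, which joins C4 in the C3-cleaving enzyme, was higher by 0.47 ± 0.08 (adjusted p 5.28e-05). Both also rose with the score in the 90 livers between (adjusted p 0.00464 and 0.0136). C1QA, a chain of the recogniser C1q, was higher by 0.50 ± 0.10 (adjusted p 0.00138), and CFP, properdin, which stabilises the alternative pathway enzyme, by 0.45 ± 0.12 (adjusted p 0.011). CFP's second probe set did not pass, at 0.24 ± 0.09 (adjusted p 0.0771). With title-number blocks 6 of the 21 were called higher, and C1QA and CFP, which macrophages make, stand beside the macrophage values given below.

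**Figure D3:**
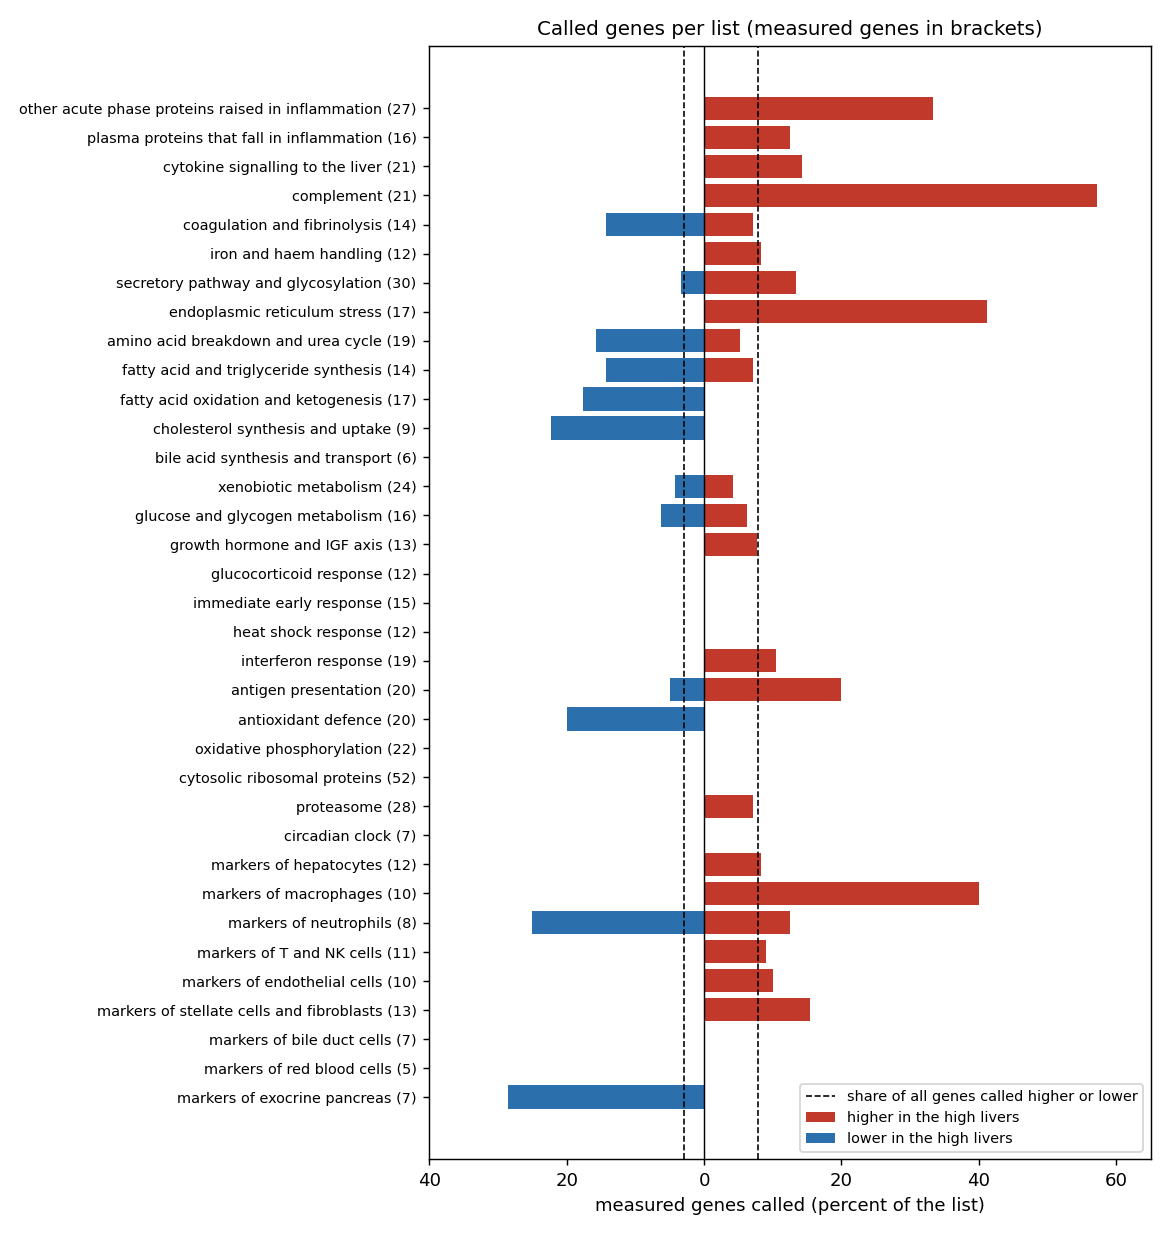
Share of the measured genes of each list (percent, horizontal axis) called higher (right, red) or lower (left, blue) in the 30 high livers at a limma adjusted p under 0.05, with the number of measured genes in brackets; dashed lines mark the shares among all 6762 genes, 7.85% and 2.93%. Complement (57.1%), endoplasmic reticulum stress (41.2%), macrophage markers (40%) and other acute phase proteins (33.3%) reach farthest right. These lists share called genes, such as C1QA and C1QC in complement and macrophage markers, and C3 and CFB in complement and acute phase proteins.

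Of 10 measured macrophage markers 4 were higher and 0 lower (median difference 0.30). In all, 8 of the 10 were on the higher side, and the differences ran from -0.25 to 0.59. SPI1, the myeloid transcription factor PU.1, ran from 5.94 to 7.71 in the high livers (median 6.63) and from 5.57 to 6.66 in the low livers (median 6.12). It was higher by 0.59 ± 0.09 (1.5-fold, adjusted p 1e-05). C1QA, C1QC (a second C1q chain, 0.38 ± 0.09) and AIF1 (an actin-binding protein of macrophages, 0.29 ± 0.07) were the other 3, with adjusted p values of 0.00138, 0.00316 and 0.00614. C1QA and C1QC are also counted in the complement list. With title-number blocks 2 of the 10 were called, and C1QC and AIF1 did not pass (adjusted p 0.0919 and 0.173). The mean of the 10 markers ran from 8.51 to 9.53 in the high livers and from 8.44 to 9.32 in the low livers, and 6 high livers lay above all low ones. The part of these cells in the complement and acute phase differences was not tested.

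Markers of other cells of the liver gave few calls. Of 8 neutrophil markers, NCF1, a subunit of the oxidase that makes superoxide, was higher by 0.22 ± 0.07 (adjusted p 0.0293, 1 of 2 probe sets), while MMP9, a matrix protease, and LTF, lactoferrin, were lower, at -0.29 ± 0.08 (adjusted p 0.0196) and -0.23 ± 0.07 (adjusted p 0.0392). T and NK cell markers gave 1 of 11, the T cell kinase LCK (0.23 ± 0.07, adjusted p 0.0388, 1 of 2 probe sets). Endothelial markers gave 1 of 10, the TGF-beta co-receptor ENG (0.34 ± 0.10, adjusted p 0.0186). Stellate cell and fibroblast markers gave 2 of 13 higher, MYL9, a myosin light chain, and FBLN1, an extracellular matrix protein, although the list's median difference was -0.09. Markers of B and plasma cells, bile duct cells and red blood cells gave 0 calls in the limma fit of 3, 7 and 5 measured, with 0, 0 and 1 at an unadjusted p under 0.05. In the exocrine pancreas list PRSS2, a trypsinogen, and CPA1, a carboxypeptidase, were lower, at -0.38 ± 0.07 (adjusted p 0.000234) and -0.38 ± 0.11 (adjusted p 0.0183). Levels of that list were low, its mean running from 5.72 to 6.28 in the high livers and from 5.97 to 6.50 in the low.

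Chaperones and enzymes of the endoplasmic reticulum held the next largest share. Of 17 measured genes of the stress response of this compartment, 7 were higher (41.2%) and 0 lower, and the median difference, 0.29, was above the 0.02 of all genes. HYOU1, a large chaperone of the HSP70 family, ran from 8.60 to 10.93 in the high livers (median 9.56) and from 7.93 to 11.18 in the low livers (median 8.85). One low liver had the highest HYOU1 of all 60, and 27 of 30 high livers lay above the low median. The difference was 0.75 ± 0.16 (1.69-fold, adjusted p 0.00145). SDF2L1, a cofactor of the chaperone BiP, was higher by 0.74 ± 0.15 (adjusted p 0.00113), CRELD2, a disulfide isomerase, by 0.67 ± 0.17 (adjusted p 0.00672) and MANF, a secreted protein of the stressed compartment, by 0.65 ± 0.14 (adjusted p 0.00171). HYOU1 and SDF2L1 also rose with the score in the 90 livers between (adjusted p 0.0296 and 0.0359), where all 17 slopes were positive, against 4381 of 6762 genes. With the score of ITIH4 and LBP alone 10 of the 17 were called higher. With title-number blocks 5 were, and without the arrays that stood apart also 5, where CRELD2 did not pass (adjusted p 0.0518).

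Of 30 measured genes of the secretory pathway beyond the chaperones 4 were higher (13.3%, against 7.85% of all genes) and 1 lower, with a median difference of 0.08. In the 90 livers between 28 of the 30 slopes were positive, against 4381 of 6762 genes. SEC23B, a coat protein of vesicles that leave the endoplasmic reticulum, was higher by 0.37 ± 0.10 (adjusted p 0.0133), SEC61A1, the channel through which new proteins enter it, by 0.26 ± 0.08 (adjusted p 0.042, 1 of 3 probe sets), and DAD1, a subunit of the enzyme that attaches N-glycans, by 0.25 ± 0.07 (adjusted p 0.0274). SAR1B, the GTPase that starts the vesicle coat, was lower, at -0.31 ± 0.07 (adjusted p 0.00326). With title-number blocks 0 of this list were called higher, the differences being 0.33 for SEC23B, 0.19 for SEC61A1 and 0.24 for DAD1, and SAR1B was still called lower (adjusted p 0.0223). CKAP4, a membrane protein of the same compartment and 1 of the 12 genes with the largest positive difference, was higher by 0.79 ± 0.16 (adjusted p 0.000639), with 3 of 3 probe sets called.

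The gene with the largest positive difference was DEFB1, a beta-defensin, an antimicrobial peptide of epithelia. It ran from 7.74 to 10.76 in the high livers (median 8.98) and from 6.84 to 9.22 in the low livers (median 7.62). All 30 high livers lay above the low median. The difference was 1.33 ± 0.17 (2.51-fold, adjusted p 4.89e-07), it was positive in 6 of 6 title-number blocks, and the slope in the 90 livers between was 1.05 (adjusted p 0.0207). A second, dimmer DEFB1 probe set, at a mean of 5.80, was higher by only 0.22 ± 0.06 (adjusted p 0.0214).

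**Figure D4:**
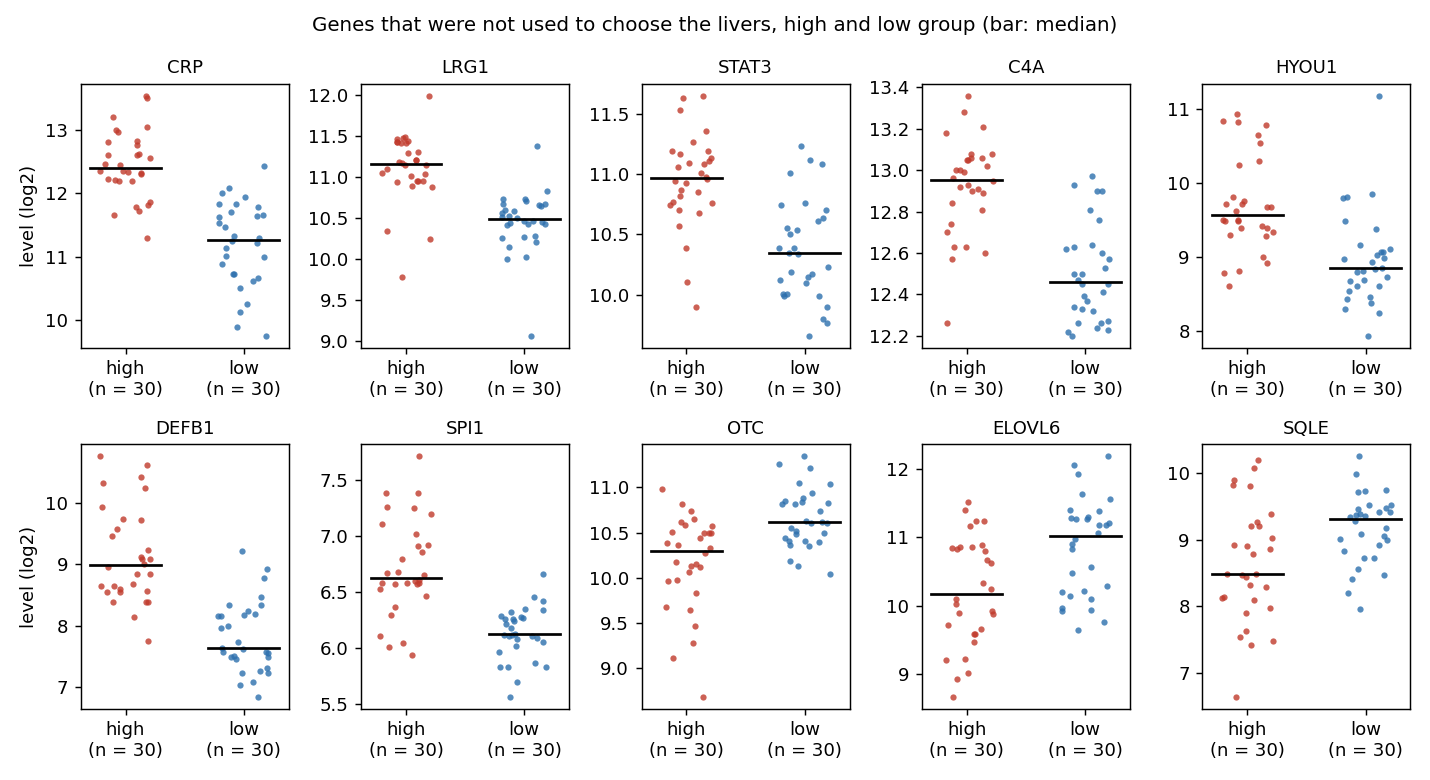
Level on the log2 scale (vertical axes, each with its own range) of 10 genes that did not choose the livers, in the 30 high and 30 low livers; each point is 1 liver and the bar is the group median. CRP, LRG1, STAT3, C4A, HYOU1, DEFB1 and SPI1 are higher and OTC, ELOVL6 and SQLE lower in the high livers, and the 2 groups overlap for all 10.

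The other genes with large positive differences had varied roles. FSTL3, a secreted binder of activin, was higher by 0.82 ± 0.12 (adjusted p 1.07e-05), with all 30 high livers above the low median. LITAF, a lysosomal protein first described as induced by lipopolysaccharide, was higher by 0.81 ± 0.15 (adjusted p 0.000176), but only 2 of its 4 probe sets passed. SLC5A6, the transporter of biotin and pantothenate, was higher by 0.76 ± 0.13 (adjusted p 5.97e-05). STK19 (0.76 ± 0.14, adjusted p 0.000158) and PML, which builds nuclear bodies and is induced by interferon (0.77 ± 0.18, adjusted p 0.00335), each passed with 1 of 2 probe sets. FKBP1B, a partner of calcium release channels, was higher by 0.79 ± 0.20 (adjusted p 0.0077). LOC100515508, a protein-coding gene without a further name, was higher by 0.87 ± 0.16 (adjusted p 0.000234) and also rose in the 90 livers between (1.02, adjusted p 0.00162). LOC396781, for which RefSeq gives the immunoglobulin synonym IGHG, was higher by 0.88 ± 0.23 (adjusted p 0.0106). MFSD2A, a transporter of lysophospholipids, showed a difference of 1.15 ± 0.36 (adjusted p 0.0347) but ranged widely, from 5.32 to 11.49. Its call was lost without the arrays that stood apart, at a difference of 0.94 (adjusted p 0.142), and its slope in the 90 livers between was -0.02.

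Of 14 measured genes of fatty acid and triglyceride synthesis 2 were lower and 1 higher, and the median difference was -0.28, with 3 of 14 on the higher side. ELOVL6, which lengthens palmitate to stearate, ran from 8.67 to 11.52 in the high livers (median 10.17) and from 9.64 to 12.18 in the low livers (median 11.02). It was lower, at -0.65 ± 0.19 (adjusted p 0.0242) in 4 of 4 probe sets. ME1, the malic enzyme that supplies NADPH, was lower, at -0.48 ± 0.15 (adjusted p 0.0312). FADS2, a desaturase of polyunsaturated fatty acids, was higher by 0.19 ± 0.05 (adjusted p 0.0148) in its brightest probe set, while the dimmer one differed by -0.38 ± 0.20 (adjusted p 0.259). Without the arrays that stood apart 0 genes of the list were called lower, the difference being -0.51 for ELOVL6 (adjusted p 0.0935) and -0.41 for ME1 (adjusted p 0.102). With title-number blocks 0 were called lower either, at -0.73 for ELOVL6 and -0.37 for ME1. Fat area of the same pigs is given below.

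Of 9 measured cholesterol genes 2 were lower and 0 higher, with a median difference of -0.25 and a median slope in the 90 livers between of -0.06. SQLE, squalene epoxidase, ran from 6.64 to 10.20 in the high livers (median 8.48) and from 7.95 to 10.25 in the low livers (median 9.31), and the difference was -0.55 ± 0.18 (adjusted p 0.0483). SC5D, a late desaturase of the pathway, was lower, at -0.42 ± 0.13 (adjusted p 0.0272), and CYP51, the lanosterol demethylase, which was 1 of the 12 largest negative differences, at -0.54 ± 0.15 (adjusted p 0.0166). Without the arrays that stood apart CYP51 passed (adjusted p 0.0226) and SQLE and SC5D did not, at -0.48 and -0.37 (adjusted p 0.0844 and 0.0517). With title-number blocks 0 of the 9 were called lower, and CYP51 did not pass (adjusted p 0.243). With the score of ITIH4 and LBP alone SQLE passed (adjusted p 0.0228) and CYP51 did not (adjusted p 0.0888). Of 6 measured bile acid genes 0 passed in the limma fit, with 3 at an unadjusted p under 0.05. CYP7A1, which sets the pace of bile acid synthesis from cholesterol, ran from 4.09 to 10.15 in the high livers (median 7.68) and from 5.74 to 11.06 in the low livers (median 8.62). Its difference was -1.06 ± 0.40 (adjusted p 0.0893), and with the score of ITIH4 and LBP alone it was -1.25 (adjusted p 0.0487). CYP7A1 did not pass with title-number blocks (adjusted p 0.11) or without the arrays that stood apart (adjusted p 0.334). SLCO1A2, an organic anion transporter, differed by -0.36 ± 0.14 (adjusted p 0.0961) and passed with array measures as covariates, at -0.39 (adjusted p 0.0264). SLCO1A2 did not pass with title-number blocks (adjusted p 0.206) or the score of ITIH4 and LBP alone (adjusted p 0.114). Without the arrays that stood apart its adjusted p was 0.271. The median slope of the 6 in the livers between was -0.04.

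Of 19 measured amino acid and urea cycle genes 3 were lower and 1 higher, although the list's median difference was 0.09. OTC, ornithine transcarbamylase of the urea cycle, ran from 8.69 to 10.98 in the high livers (median 10.30) and from 10.04 to 11.34 in the low livers (median 10.62). The difference was -0.49 ± 0.11 (adjusted p 0.00264), negative in 6 of 6 title-number blocks. KYNU, of tryptophan breakdown, was lower, at -0.47 ± 0.13 (adjusted p 0.0179, 1 of 2 probe sets), and DPYS, of pyrimidine breakdown, at -0.41 ± 0.09 (adjusted p 0.00191), but a dimmer DPYS probe set was higher by 0.30 ± 0.08 (adjusted p 0.0136). HPD, of tyrosine breakdown, was higher by 0.30 ± 0.09 (adjusted p 0.0311). Of 17 fatty acid oxidation genes 3 were lower and 0 higher: ACADL, an acyl-CoA dehydrogenase (-0.36 ± 0.11), ETFDH, which passes its electrons on (-0.24 ± 0.08), and HADHB, of the trifunctional protein (-0.20 ± 0.06), with adjusted p values of 0.0255, 0.0453 and 0.0438. None of those 3 passed without the arrays that stood apart, at -0.30, -0.22 and -0.19, or with the score of ITIH4 and LBP alone, at -0.23, -0.17 and -0.09.

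The other genes with large negative differences had varied roles. OGDHL, a relative of the oxoglutarate dehydrogenase, ran from 4.54 to 9.36 in the high livers (median 5.86) and from 5.23 to 9.94 in the low livers (median 8.21). It was lower, at -1.07 ± 0.36 at an adjusted p of 0.0499, just inside the threshold, and did not pass without the arrays that stood apart, at -0.80 (adjusted p 0.233). AMACR, a racemase of branched fatty acids and bile acid intermediates, was lower, at -0.75 ± 0.19 (adjusted p 0.0078), and PANK1, which starts coenzyme A synthesis, at -0.58 ± 0.14 (adjusted p 0.00619), with 1 of 3 probe sets. Without the arrays that stood apart AMACR did not pass (adjusted p 0.0556). Nor did it with title-number blocks (adjusted p 0.0791) or the score of ITIH4 and LBP alone (adjusted p 0.119). ALDH1B1, a mitochondrial aldehyde dehydrogenase, was lower, at -0.58 ± 0.15 (adjusted p 0.00842), but its slope in the 90 livers between was positive, at 0.22. TRMT2B, a mitochondrial RNA methyltransferase, was lower, at -0.67 ± 0.16 (adjusted p 0.00537). Of the remaining 4, ECSCR, an endothelial surface protein, was lower, at -0.60 ± 0.18 (adjusted p 0.0317) and fell in the livers between too (-0.86, adjusted p 0.00312). PDLIM4, a cytoskeletal adaptor, was lower, at -0.77 ± 0.18 (adjusted p 0.00344), GPKOW, a splicing protein, at -0.57 ± 0.12 (adjusted p 0.00201), and the long noncoding RNA LOC100522818 at -0.56 ± 0.10 (adjusted p 0.000234). Each of these 4 passed with 1 of 2 probe sets, and the other probe set of ECSCR differed by 0.08 ± 0.10.

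Antioxidant genes gave 4 lower and 0 higher of 20 measured, with a median difference of 0.01. GCLC, which limits glutathione synthesis, was lower, at -0.50 ± 0.14 (adjusted p 0.0183) in 3 of 5 probe sets. NQO1, a quinone reductase, was lower, at -0.49 ± 0.15 (adjusted p 0.0299), PRDX3, a mitochondrial peroxiredoxin, at -0.20 ± 0.06 (adjusted p 0.0217) and CAT, catalase, at -0.16 ± 0.05 (adjusted p 0.0255). Without the arrays that stood apart 0 of the 20 were called lower, the differences of these 4 being -0.40, -0.38, -0.17 and -0.13.

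The interferon response had a wide spread in the high livers and few calls. All 19 measured genes were on the higher side, with a median difference of 0.50, but only 2 passed: XAF1, a pro-apoptotic protein (0.72 ± 0.19, adjusted p 0.0105), and IRF9, an interferon regulatory factor (0.48 ± 0.12, adjusted p 0.00855). For all 19 the SD was larger in the high livers, from 0.472 to 2.08, than in the low livers, from 0.269 to 1.13. The mean over the 19 genes ran from 6.86 to 11.32 in the high livers (median 7.28) and from 6.68 to 8.01 in the low livers (median 7.10). In all, 4 high livers lay above all low livers, 1 of them on an array that stood apart. Antigen presentation gave 4 higher and 1 lower of 20 measured. PSMB10, of the immunoproteasome, was higher by 0.36 ± 0.10 (adjusted p 0.0205), TAPBP, which loads peptides on class I molecules, by 0.30 ± 0.09 (adjusted p 0.0319), and SLA-DOA, which tempers class II loading, by 0.28 ± 0.07 (adjusted p 0.0125). TAP1, the peptide transporter, was lower, at -0.17 ± 0.05 (adjusted p 0.023) in its brightest probe set, while its other 2 differed by 0.09 ± 0.05 and 0.33 ± 0.17 without passing. With title-number blocks 0 genes of these 2 lists were called (adjusted p 0.0556 for XAF1 and 0.116 for IRF9). With the score of ITIH4 and LBP alone 1 antigen presentation gene was called, PSMB10 (adjusted p 0.0414).

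**Figure D5:**
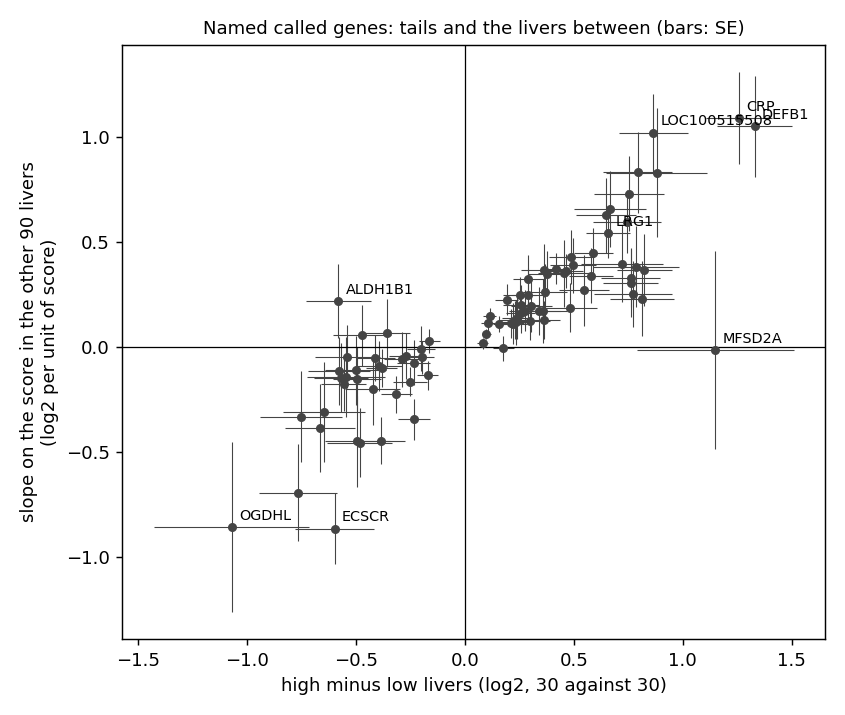
For the named genes called between the groups, the difference between 30 high and 30 low livers (log2, horizontal axis) against the slope on the score in the other 90 livers (log2 per unit of score, vertical axis); bars are standard errors. CRP, DEFB1 and LOC100515508 lie far up on both axes, while MFSD2A (-0.02) and ALDH1B1 (0.22) have slopes of the opposite sign.

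Other processes gave few calls, to be read against the 7.85% of all genes called higher and 2.93% called lower. Coagulation gave 2 lower and 1 higher of 14: KLKB1, plasma prekallikrein (-0.39 ± 0.10, adjusted p 0.0101), and KNG1, kininogen (-0.27 ± 0.08, adjusted p 0.032, 1 of 4 probe sets), were lower, and PLG, plasminogen, was higher (0.11 ± 0.03, adjusted p 0.0103). In iron and haem handling 1 of 12 was higher, HPX, the haem carrier hemopexin (0.10 ± 0.02, adjusted p 0.000615). Xenobiotic metabolism gave 1 higher of 24, POR, the reductase that feeds the cytochromes (0.29 ± 0.07, adjusted p 0.00736), and 1 lower, NQO1. Glucose metabolism gave 1 higher of 16, PC, pyruvate carboxylase of gluconeogenesis (0.55 ± 0.11, adjusted p 0.00126), and 1 lower, PYGL, liver glycogen phosphorylase (-0.25 ± 0.08, adjusted p 0.0337). The growth hormone axis gave 1 of 13 (7.69%), IGF2, a growth factor (0.36 ± 0.11, adjusted p 0.0304), with 6 of 13 probe sets called. The call of its brightest probe set was lost with title-number blocks (adjusted p 0.398) and the score of ITIH4 and LBP alone (adjusted p 0.11). It was also lost without the arrays that stood apart (adjusted p 0.0821) and with array measures as covariates (adjusted p 0.0988). The proteasome gave 2 of 28, PSMB2 (0.21 ± 0.06, adjusted p 0.00993) and PSMD2 (0.18 ± 0.05, adjusted p 0.015).

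No gene of 6 lists passed in the limma fit by its brightest probe set: glucocorticoid response (12 measured), immediate early response (15), heat shock (12), oxidative phosphorylation (22), cytosolic ribosomal proteins (52) and the circadian clock (7). Of these 120 genes 20 had an unadjusted p under 0.05. Among all 23995 probe sets 4976 did, but that count includes dim probe sets and those without a symbol. The matching count by gene was not made. The smallest adjusted p was 0.0534 for KLF9, a glucocorticoid-induced factor, at -0.56 ± 0.19, and with array measures as covariates it passed, at -0.54 (adjusted p 0.0157). KLF9 did not pass with title-number blocks (adjusted p 0.119) or the score of ITIH4 and LBP alone (adjusted p 0.18). Without the arrays that stood apart its adjusted p was 0.0818. ZFP36, which destabilises cytokine transcripts, differed by 0.51 ± 0.18 (adjusted p 0.0715). It passed with title-number blocks (adjusted p 0.0471) and the score of ITIH4 and LBP alone (adjusted p 0.0147). ZFP36 did not pass without the arrays that stood apart (adjusted p 0.293) or with array measures as covariates (adjusted p 0.0922). NDUFA1, of respiratory complex I, differed by -0.56 ± 0.21 (adjusted p 0.0827), and passed with the score of ITIH4 and LBP alone (adjusted p 0.0129), while its other probe set differed by -0.04 ± 0.05. SGK1, a glucocorticoid-induced kinase, differed by 0.38 ± 0.17 (adjusted p 0.16), IER5, an early response regulator, by 0.24 ± 0.10 (adjusted p 0.11; a dimmer probe set passed, at 0.30 ± 0.10 and an adjusted p of 0.0489), and the heat shock chaperones CRYAB and DNAJB1 by 0.33 ± 0.13 and 0.29 ± 0.12 (adjusted p 0.11 and 0.145). CRYAB passed with array measures as covariates, at 0.39 (adjusted p 0.0423). NDUFS1, of complex I, differed by -0.20 ± 0.07 (adjusted p 0.089), and the ribosomal proteins RPS25 and RPL27 by -0.11 ± 0.04 and 0.11 ± 0.04 (adjusted p 0.0924 and 0.111). RPS25 passed without the arrays that stood apart, at -0.13 (adjusted p 0.0468). The clock genes NFIL3, a repressor, and DBP, an activator of the same sites, differed by 0.32 ± 0.12 and -0.35 ± 0.18 (adjusted p 0.0949 and 0.268). With title-number blocks NFIL3 passed, at 0.51 (adjusted p 0.0438), and DBP was at -0.69 (adjusted p 0.0583). The settings looked at here were title-number blocks, the score of ITIH4 and LBP alone, array measures, and leaving out arrays that stood apart. Among these, KLF9, NDUFA1, CRYAB, RPS25 and NFIL3 passed only in the setting named for each. A pass in a setting picked this way does not make a gene called. For these 6 lists the median difference ran from -0.08 to 0.11, against 0.02 for all genes.

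The 86 called genes named here differed in how they fared in other settings. Of these, 51 were still called with the score of ITIH4 and LBP alone, 57 without the arrays that stood apart and 41 with title-number blocks. In all 3 settings 34 were still called, 27 higher and 7 lower. The 27 were CRP, LRG1, APCS, SERPING1, HPX, C1QA, C2, C4A, STAT3, TNFRSF1A, MYD88, SPI1, HYOU1, SDF2L1, MANF, CKAP4, DEFB1, FSTL3, LITAF, SLC5A6, STK19, PML, FKBP1B, LOC100515508, FADS2, PC and PSMB2. The 7 were OTC, DPYS, SAR1B, PRSS2, TRMT2B, GPKOW and LOC100522818.

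Carcass traits of the same pigs were compared last. Fat area ran from 8.1 to 21.4 cm2 in the pigs of the high livers (median 13.7) and from 9.9 to 26.7 cm2 in those of the low livers (median 15.4). The means were 14.0 ± 3.01 and 15.8 ± 3.61 cm2 (SD, n = 30 each), a difference of -1.76 cm2 (95% interval -3.47 to -0.0388, two-sided permutation p 0.0454, adjusted p 0.196 over 7 measures). The difference did not hold after the adjustment. Over all 150 pigs the score and fat area had a Pearson's r of -0.148 (permutation p 0.0701). Spearman's rho was -0.136 (permutation p 0.096). Over 4 such values the adjusted p was 0.192 for each, and leaving out the 2 livers farthest from the median score gave an r of -0.152. Drip loss averaged 5.31 ± 1.99% and 5.57 ± 2.09% (SD, n = 30 each), a difference of -0.264 (95% interval -1.32 to 0.79, permutation p 0.618, adjusted p 0.815). With the score it had an r of -0.0322 (permutation p 0.695), or -0.0165 when those 2 livers were left out. Its rho was -0.0351 (permutation p 0.671).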

How the data were processed

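The authors deposited 1 log2 value per probe set and array; the scale was inferred from the range of the values. The Affymetrix program GCOS 1.1.1 is listed, per the submitters' processing notes, and how probes were summarised and arrays normalized is not given in the sources. The lowest value, 4.09, held 2.75% of all values, so changes of probe sets with values there may be understated, which was not tested.

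Of 24123 probe sets, 124 Affymetrix controls and the 4 of HP, ITIH4 and LBP were left out and 23995 tested; depth does not apply to arrays, and the number of arrays limits the precision. Symbols came from the array annotation and were checked by Entrez ID against RefSeq's pig gene table (Sscrofa11.1): 10069 probe sets had 1 symbol (9961 matched by ID, 0 symbols changed), 198 several and 13732 none, and no gene was named from several. A gene counted by its brightest probe set. The contrast was fitted with limma 3.58.1 (lmFit, eBayes with trend, no covariates, two-sided) in R 4.3.3, with Benjamini-Hochberg adjustment over all 23995. The livers are separate pigs. Traits and array measures had permutation tests of 100000 resamples; correlations were repeated without 2 livers. The fit was tested on simulated data. An array stood apart when its median correlation with the others was over 3 scaled median absolute deviations below the median of all arrays. Title-number blocks span 100 numbers each.

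Named genes were the 12 largest positive and 12 largest negative called differences among genes with a single symbol, and per list described up to 4 called members, or the 2 of smallest p. Any other gene was picked with its values in view. The livers, genes and lists were chosen with earlier results of these data known. Alternatives were quantile normalization, a filter at a mean of 5, eBayes without trend, array measures, EIF1AY, title-number blocks or traits as covariates, tails of 20 or 40, slopes over all 150 or the 90 livers between, other versions of the score, and leaving out arrays that stood apart.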

Additional observations from a re-analysis of the deposited data

How the results depend on the processing

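The groups rest on 3 genes whose levels ran in a continuous range, and on HP near the top of the array's scale. The shares of the 23995 probe sets called higher and lower in the high livers, 4.61% and 2.84%, moved by more than 1.5 times in these settings: 1.88% and 1.01% with title-number blocks, 1.63% and 1.20% with tails of 20, 1.55% and 1.04% without ITIH4 in the score, 7.77% and 5.99% as slopes over all 150 livers, and 0.317% and 0.246% as slopes over the 90 livers between. Only the higher share moved that far without HP (3.03%), without LBP (2.15%) and with the brightest probe set of each score gene (2.69%), and only the lower share without the arrays that stood apart (1.66%). These settings redraw, drop or reduce the livers, or add terms; the cause of each change was not tested. Quantile normalization, the filter at a mean of 5, eBayes without trend, tails of 40, and array measures, EIF1AY or the traits as covariates kept both shares within 1.5 times. A score without FGA was not run, because FGA was not in the score.

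The fat area difference of -1.76 cm2 was no longer past an unadjusted 0.05 with tails of 20 (-0.94), tails of 40 (-1.26), without HP (-0.89), without ITIH4 (-0.38), without LBP (-1.23) or without the arrays that stood apart (-1.69). The drip loss difference was 0.00533 without HP. In the 90 livers between, slopes had the opposite sign of the group difference for MFSD2A (-0.0163), ALDH1B1 (0.218), KYNU (0.0557), ACADL (0.067), DNAJB1 (-0.0754), CAT (0.0294) and PSMD2 (-0.00723). DNAJB1, a heat shock cochaperone, was not called between the groups. No paired analysis was possible because the labels give 1 group and no replicate numbers shared between groups.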

Other observations

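Some of the largest differences were of probe sets without a gene symbol. Of the probe sets called higher 427 had none, and of the 682 called lower 390 had none. The probe set without a symbol that had the largest positive difference, chosen after its values were seen, was higher in the high livers by 1.46 ± 0.20 on the log2 scale (8.15 ± 0.74 against 6.69 ± 0.84, SD, n = 30 each; limma adjusted p 1.04e-06), and its slope on the score in the 90 livers between was 1.24. The one with the largest negative difference was lower, at -1.15 ± 0.31 (6.67 ± 1.59 against 7.82 ± 0.71, SD, n = 30 each; limma adjusted p 0.0121), with a slope of -1.37 in the livers between.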
